A study of Mus musculus with 68 samples.

Results

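The histone chaperones of nucleosome assembly were followed as RNA in mouse somatic cell nuclear transfer (SCNT) embryos and in blastocysts injected with morpholinos. They were taken as 10 genes by symbol, of 24421 gene symbols that every deposited table lists: Chaf1a, Chaf1b, Asf1a, Asf1b, Hira, Ubn1, Daxx, Atrx, Nap1l1 and Nasp. No measured value was a criterion of the choice, but it was made with earlier results of these data known. In the SCNT experiment, cumulus cells (CC) of BDF1 (B6D2F1) females, mice of 8 to 10 weeks, were injected into enucleated BDF1 oocytes, and libraries were made from untreated CC (n = 3) and from untreated SCNT embryos at 6 and 14 h post activation (hpa), at early 2-cell (E2C), late 2-cell (L2C), 4-cell (4C) and 8-cell (8C) stages, and at the morula. Blastocysts were split into their inner cell mass, the ICM, and their trophectoderm, the TE. There were 5 libraries at 4C and 6 at each other SCNT stage or lineage. In the morpholino experiment, fertilized C57BL/6j zygotes, of parents of the same strain, received a morpholino (MO), an antisense oligonucleotide, against Max or against Mcrs1, and ICM and TE libraries of these blastocysts and of a control were made (n = 2 in each of 6 groups). The control libraries are labelled control and untreated, while the treatment protocol names a random control morpholino. The study describes these controls as injected with a control morpholino, at a higher concentration than either knockdown. The Max and Mcrs1 morpholinos also differed from each other in concentration. MAX is the dimer partner of MYC proteins and of several repressors, and MCRS1 is a subunit of chromatin complexes. The SCNT embryos all received activation with strontium and cytochalasin B, and SCNT and fertilized embryos were tested in separate experiments and on different mouse strains, so no test was made between them.

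Each library was made by Smart-seq2, which copies polyadenylated RNA, from 10 blastomeres according to the protocol. The protocol names 3 replicates a stage, whereas 6 libraries a stage are present for most stages. The study describes replicates as biologically independent, but the labels do not say which libraries came from which embryo collection. Levels are given as TPM, the deposited unit of transcript abundance, which are divided by transcript length, and the tables hold no read counts. The depth behind a value is therefore unknown, and no counting interval is given. The ratio of coverage to FPKM, which grows with the number of aligned bases, ranged from 1.00 to 5.17 over the 68 libraries. Annotated genes summed to 81.8% to 82.5% of 1000000 TPM in CC, 30.4% to 90.9% in SCNT embryos and 85.5% to 94.4% in the morpholino experiment. Of the 680 values of the 10 genes, 39 were below 1 TPM and 2 were listed at 0.

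Labels were checked against marker genes. The summed TPM of 6 cumulus markers was 1232 to 1912 in CC and at most 59.96 in any SCNT library. The sum of 5 maternal transcripts of the oocyte was 4171 to 8076 TPM at 6 hpa and 7.58 to 16.1 TPM at 8C. The sum of 4 ICM markers was 211 to 373 TPM in the SCNT ICM and 54.8 to 222 TPM in the SCNT TE, while the sum of 5 TE markers was 1931 to 8383 TPM and 5128 to 16059 TPM respectively, so that TE transcripts were present in every ICM library. In the control ICM of the morpholino experiment, the TE marker sum was 15975 TPM in replicate 1 and 354 TPM in replicate 2, and these libraries stand apart from each other. It was 2718 and 5824 TPM in the Max MO ICM and 11551 and 8041 TPM in the Mcrs1 MO ICM. In the TE the same sum was 20517 and 18369 TPM in controls, 19592 and 21139 TPM with Max MO and 15095 and 15586 TPM with Mcrs1 MO. Control ICM replicate 1 thus lay within the range of the TE libraries. SCNT libraries numbered 1 to 3 and 4 to 6 also stood apart. At the 8 SCNT stages and lineages with 3 libraries in each set, the ranges of the sets did not overlap in 39 of 80 comparisons of a gene, and per stage this held for 24.6% to 51.8% of all genes tested. The labels do not say what separates these sets. For many of the comparisons below, changes within a set are therefore also given. CC had only replicates 1 to 3. In libraries of pooled blastomeres, fewer cells with a transcript and less of it per cell cannot be told apart.

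Nucleosomes are built from histones that chaperones escort and deposit on DNA. Behind the replication fork, the CAF-1 complex, of which CHAF1A and CHAF1B are the large subunits, deposits H3.1 and H3.2 received from ASF1. Outside replication, the variant H3.3 is placed by the HIRA complex, with UBN1, at active chromatin and in the paternal pronucleus of the zygote, and by DAXX with ATRX at heterochromatin and telomeres. ASF1A and ASF1B are paralogs that bind H3-H4 dimers, with ASF1B linked to proliferation and ASF1A to HIRA as well as to CAF-1. NASP keeps a soluble reserve of H3-H4, and NAP1L1 carries H2A-H2B. Oocytes store chaperone RNA and protein, and CAF-1 is required in the preimplantation mouse embryo.

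The promoters of 4 of the genes are shown because MAX, a morpholino target, binds the E-box CACGTG with its partners, and because CCAAT boxes and E2F and CHR sites are common in genes of the cell cycle. The windows are the 250 bases before the RefSeq start on GRCm38.p6, 5′ to 3′ on the strand of the gene, with every match to the 4 motifs, on either strand, in capitals. The motifs were CACGTG for the E-box, CCAAT or ATTGG for the CCAAT box, TTTGAA or TTCAAA for the CHR element and TTCCCGCC or GGCGGGAA for the E2F site. The Chaf1a window (chr17:56040166-56040415, + strand) holds 1 E-box, 1 CCAAT box and 1 E2F site. The Ubn1 window (chr16:5049807-5050056, + strand) holds 2 E-boxes and 2 CCAAT boxes. The Atrx window (chrX:105929373-105929622, - strand) holds 3 CCAAT boxes and no E-box. The Asf1b window (chr8:83955444-83955693, + strand) holds 4 CCAAT boxes and 1 CHR element.
Chaf1a: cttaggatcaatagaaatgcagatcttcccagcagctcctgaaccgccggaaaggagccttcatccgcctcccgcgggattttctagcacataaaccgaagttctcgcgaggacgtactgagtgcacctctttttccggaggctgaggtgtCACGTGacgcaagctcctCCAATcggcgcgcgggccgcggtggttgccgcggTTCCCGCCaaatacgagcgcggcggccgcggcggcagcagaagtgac
Ubn1: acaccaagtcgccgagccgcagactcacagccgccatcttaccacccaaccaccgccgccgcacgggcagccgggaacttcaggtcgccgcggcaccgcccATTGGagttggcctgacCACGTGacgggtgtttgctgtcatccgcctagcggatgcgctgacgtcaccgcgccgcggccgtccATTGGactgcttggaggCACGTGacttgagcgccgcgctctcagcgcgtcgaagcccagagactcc
Atrx: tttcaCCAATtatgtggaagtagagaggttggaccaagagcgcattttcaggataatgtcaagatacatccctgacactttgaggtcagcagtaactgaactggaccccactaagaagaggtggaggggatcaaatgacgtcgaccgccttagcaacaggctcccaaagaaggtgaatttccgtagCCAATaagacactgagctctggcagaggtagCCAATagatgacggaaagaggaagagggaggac
Asf1b: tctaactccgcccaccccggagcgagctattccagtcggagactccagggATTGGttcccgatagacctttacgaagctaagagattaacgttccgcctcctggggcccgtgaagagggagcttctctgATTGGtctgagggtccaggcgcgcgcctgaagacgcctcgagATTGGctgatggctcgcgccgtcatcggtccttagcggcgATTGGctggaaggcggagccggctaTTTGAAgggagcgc
Windows were found for all 10 genes, 12 windows in all, as Daxx has 3 starts. An E-box lay in a window of Chaf1a and Ubn1 only, against 6.86% of the 27025 genes with a window. In Chaf1a it began 99 bases before the start and in Ubn1 132 and 49 bases before it. A CCAAT box lay in a window of 8 of the 10 genes (all but Chaf1b and Hira), against 37.49% of all genes. A CHR element lay in those of Asf1b and Nasp (18.26% of all genes) and an E2F site in those of Chaf1a and Nap1l1 (2.128%). These matches are descriptions of letters in a fixed window, and no binding was measured.

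On the mm10 build of the tables, the genes of the replication-coupled class lie at chr17:56040416-56068026 (Chaf1a, + strand), chr16:93883901-93906106 (Chaf1b, +) and chr8:83955694-83970195 (Asf1b, +). Those of the replication-independent class lie at chr16:18876750-18970308 (Hira, +), chr16:5050068-5086285 (Ubn1, +), chr17:33909445-33915590 (Daxx, +) and chrX:105797615-105929372 (Atrx, -). Asf1a lies at chr10:53596961-53609215 (+), Nap1l1 at chr10:111473192-111498150 (+) and Nasp at chr4:116601052-116627951 (-). These positions are the ends of each gene entry, while TPM are divided by transcript length and do not measure the whole span. Strand was not kept in the assay, so reads from bases shared by Chaf1a and Ubxn6, whose 3′ end overlaps it, could not be told apart. The same holds for any bases that Asf1a shares with Mcm9, whose span contains it on the opposite strand. Whether exons of Asf1a and Mcm9 share bases was not examined.

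**Figure D1:**
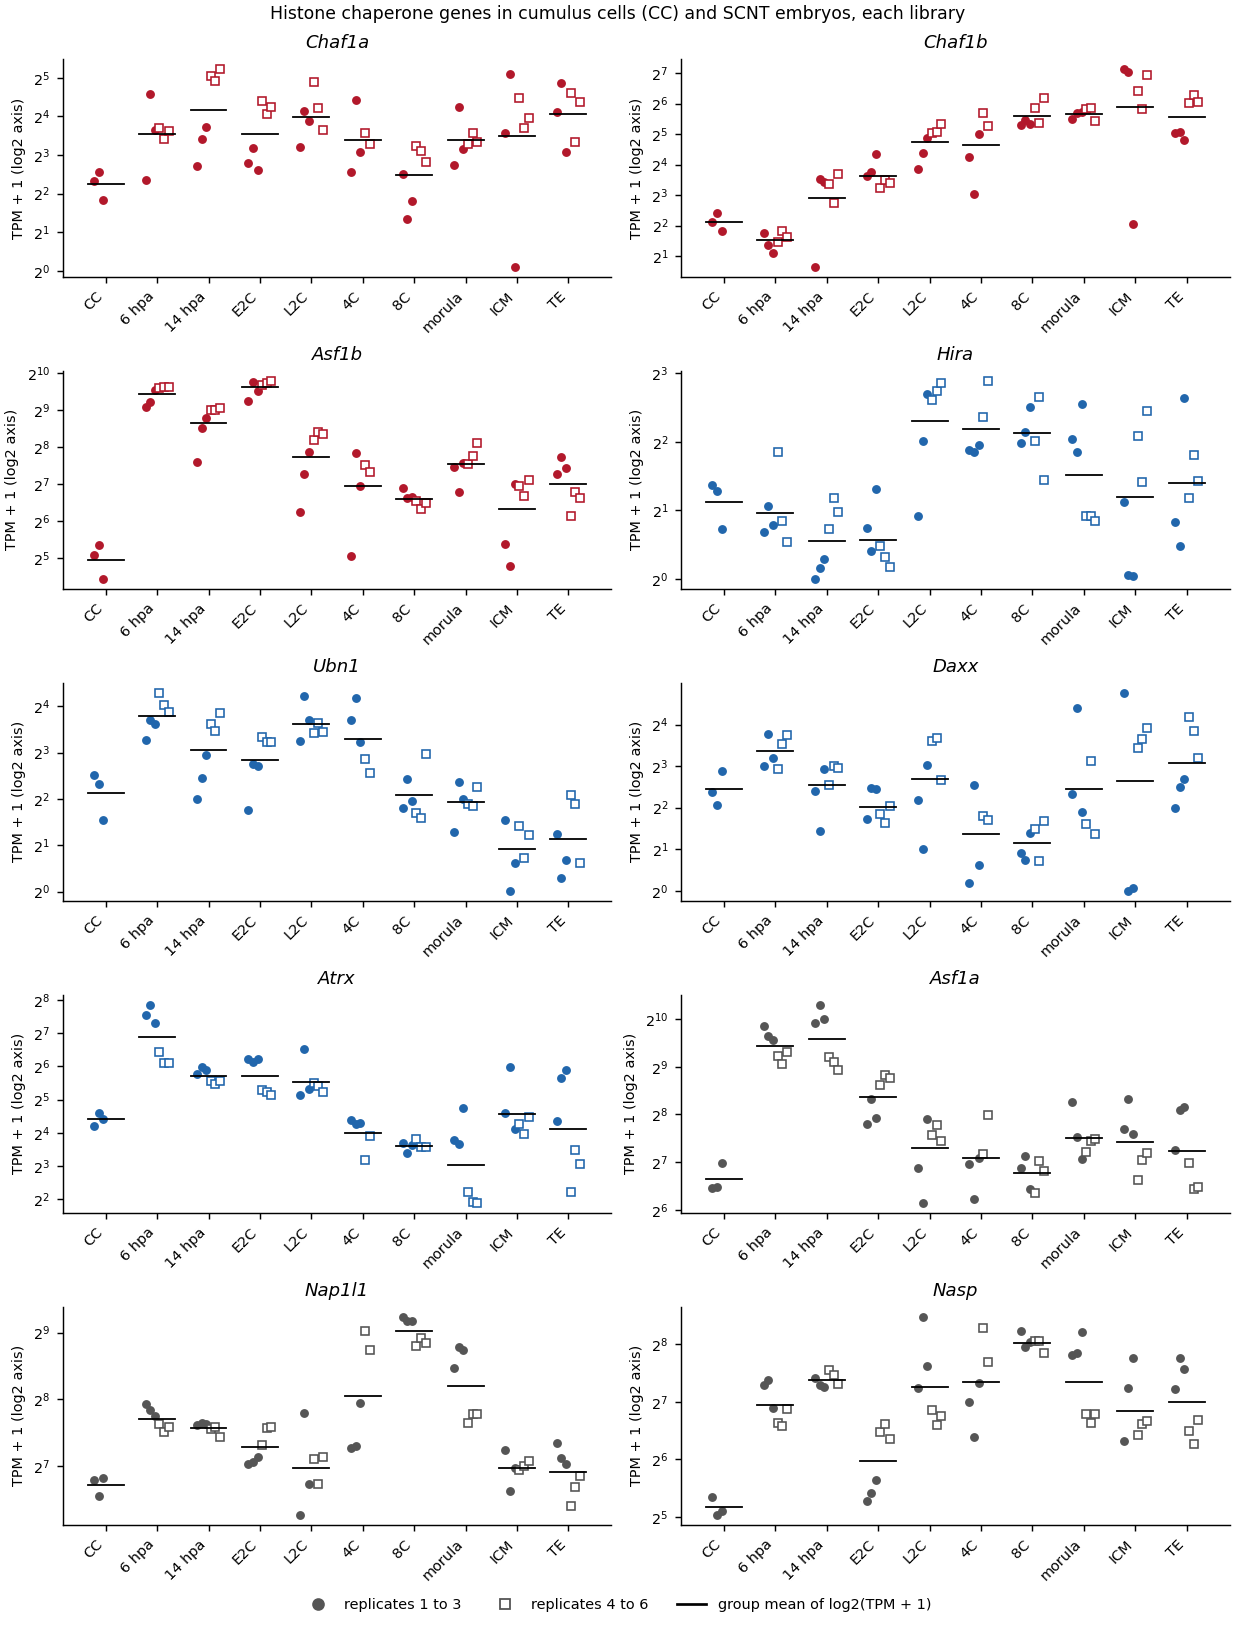
Level of each of the 10 chaperone genes (log axis) in every CC and SCNT library by stage or lineage, as TPM + 1, with filled circles for replicates 1 to 3, open squares for replicates 4 to 6 and a bar at the group mean of log2(TPM + 1). Mean TPM was highest at 6 hpa for Atrx and Ubn1, at 14 hpa for Asf1a and Chaf1a, at E2C for Asf1b, at L2C for Hira, at 8C for Nap1l1 and Nasp and in the ICM for Chaf1b and Daxx.

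Of the CAF-1 subunits, Chaf1b RNA, of the middle subunit, was scarce after activation and abundant in the blastocyst. It was 3.32, 4.32 and 2.51 TPM in the 3 CC libraries, 1.16 to 2.51 TPM (median 1.92) at 6 hpa, 13.4 to 38.9 TPM (median 29.8) at L2C, 38.3 to 71.9 TPM (median 41.9) at 8C and 3.13 to 140 TPM (median 103) in the SCNT ICM. The mean in the ICM was 46.8 times that at 6 hpa, although no pair of neighbours in the order of its 10 group means was free of overlap. Chaf1a RNA, of the large subunit, stayed within 5.46-fold between its lowest mean, in CC, and its highest, at 14 hpa. Its 6 libraries at 14 hpa spanned 5.56 to 36.5 TPM (median 20.8), and those at 8C spanned 1.54 to 8.48 TPM (median 5.37). In SCNT ICM replicate 3 both subunits were low, with Chaf1a at 0.0747 TPM and Chaf1b at 3.13 TPM, and the other 5 ICM libraries were at 10.9 TPM or above for Chaf1a and at 55.5 TPM or above for Chaf1b. In that library 4 of the 10 genes were below 1 TPM. The number of genes at 1 TPM or above was 6177 to 6771 in SCNT ICM replicates 1 to 3 and 9011 to 10032 in replicates 4 to 6, and its part in the low values was not tested.

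The ASF1 paralogs had the highest group means of the 10 genes at 6 hpa, 14 hpa and E2C. Asf1b was 32.5, 39.6 and 20.6 TPM in CC, 545 to 790 TPM (median 763) at 6 hpa, 603 to 887 TPM (median 836) at E2C, 74.6 to 341 TPM (median 263) at L2C and 79.6 to 118 TPM (median 94.8) at 8C. The E2C mean was 25.7 times the CC mean. Asf1a was 86.9, 87.9 and 126 TPM in CC, 531 to 920 TPM (median 694) at 6 hpa, 486 to 1257 TPM (median 780) at 14 hpa, 221 to 452 TPM (median 356) at E2C and 80.8 to 138 TPM (median 115) at 8C. The balance between the paralogs changed sign with stage. The log2 ratio of Asf1a to Asf1b averaged 1.69 in CC, where Asf1a was higher in 3 of 3 libraries, 0.91 at 14 hpa (5 of 6 libraries) and -1.25 at E2C (0 of 6). From L2C to the morula the mean ratio lay between -0.44 and 0.19, with both signs among the libraries of each stage.

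The RNAs of the HIRA complex were low throughout. Hira was 1.59, 1.44 and 0.655 TPM in CC, 0.123 to 1.48 TPM (median 0.363) at E2C and 0.895 to 6.24 TPM (median 5.29) at L2C, its highest stage. Ubn1 was 4.72, 4.04 and 1.93 TPM in CC, 8.66 to 18.6 TPM (median 12.8) at 6 hpa, 2.01 to 6.82 TPM (median 2.70) at 8C and 0.0141 to 1.93 TPM (median 1.01) in the SCNT ICM. The mean of Ubn1 at 6 hpa was 12.9 times that in the ICM.

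Of the DAXX-ATRX pair, Atrx, a chromatin remodeller of the SNF2 family, was the major RNA. It was 17.4, 23.4 and 20.5 TPM in CC, 67.2 to 230 TPM (median 121) at 6 hpa, 34.2 to 90.1 TPM (median 40.4) at L2C, 9.47 to 13.1 TPM (median 11.2) at 8C, 2.73 to 25.8 TPM (median 7.65) at the morula and 14.5 to 62.7 TPM (median 19.9) in the SCNT ICM. Its replicates 1 to 3 averaged 191 TPM at 6 hpa and 42.2 TPM in the TE, and its replicates 4 to 6 averaged 73.7 and 7.09 TPM, without overlap at either. Daxx, the H3.3 chaperone itself, was 4.21, 3.17 and 6.36 TPM in CC, 6.61 to 12.7 TPM (median 9.40) at 6 hpa, 0.655 to 2.21 TPM (median 1.24) at 8C and 0 to 26.1 TPM (median 10.7) in the ICM. The ICM range of Daxx covered its range at every other stage.

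Nap1l1 and Nasp, the carriers of the histone reserve, reached their highest means at 8C. Nap1l1 was 110, 93.1 and 112 TPM in CC, 181 to 243 TPM (median 206) at 6 hpa, 446 to 603 TPM (median 530) at 8C and 97.5 to 150 TPM (median 126) in the ICM. Nasp was 39.7, 31.9 and 33.4 TPM in CC, 94.2 to 166 TPM (median 117) at 6 hpa, 38.0 to 97.7 TPM (median 64.9) at E2C and 230 to 302 TPM (median 263) at 8C. The 8C range of Nap1l1 lay above that of the morula (198 to 438 TPM), the next stage in the order of its means, without overlap. The order of neighbouring group means was otherwise mostly within the spread. Of 9 neighbour pairs for each gene, 1 was without overlap for Asf1b (6 hpa above 14 hpa), 1 for Asf1a (6 hpa above E2C) and 1 for Nap1l1, and none for the other 7 genes.

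The first comparison asks how chaperone RNA differs between the donor cell and the reconstructed embryo, whose cytoplasm is that of the oocyte. At 6 hpa, 5 of the 10 genes were higher than in CC and 0 were lower by limma on log2(TPM + 1), the threshold being an adjusted p (Benjamini-Hochberg) below 0.05 together with a 2-fold change. Of 12084 genes tested, 25.8% were higher, 35.6% lower and 61.4% either. Asf1b rose most, by 4.51 on the log2 scale (SE 0.44, limma adjusted p = 3.4e-13), and its lowest 6 hpa library stood above the highest CC library. Asf1a rose by 2.80 (limma adjusted p = 2.8e-09), Atrx by 2.48 (limma adjusted p = 6.9e-05), Nasp by 1.78 (limma adjusted p = 4.1e-05) and Ubn1 by 1.67 (limma adjusted p = 0.00049), in each case without overlap with CC. As CC has no replicates 4 to 6, only replicates 1 to 3 could be compared within a set. There the rises were 4.34 for Asf1b, 3.04 for Asf1a, 3.15 for Atrx, 2.03 for Nasp and 1.40 for Ubn1. In the fit of all libraries, Nap1l1 differed by 0.99 (limma adjusted p = 0.0019), just under the fold required. Chaf1a differed by 1.31 (limma adjusted p = 0.061), Daxx by 0.92 and Chaf1b by -0.59, none of them past the threshold. The median difference was 1.49 over the 10 genes and -0.28 over all genes tested. The maternal marker sum moved with this contrast, from at most 2.25 TPM in CC to at least 4171 TPM at 6 hpa, and its part in these differences was not tested. With quantile normalization, which raised the median of all genes by 0.26, 8 of the 10 genes were past the threshold. Of all 12084 genes, 7612 were past it in that fit.

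Other genes of the pathway went in both directions at 6 hpa. Of 23 further assembly genes, 8 rose and 5 fell, among them Npm2, the nucleoplasmin of the egg (8.13), Rbbp7, a histone-binding subunit shared by several complexes (2.90), Set (-3.38) and Ipo4, an importin for H3-H4 (-2.81). Of 14 replication fork genes, 4 rose and 3 fell, led by Rfc2 of the clamp loader (-5.43) and Mcm2 of the helicase, which also binds histones (4.84). Among genes of centromeric histone loading, Mis18a (-5.43) and Oip5 (-3.70) fell. Of the H3.3 genes, H3f3a fell (-2.54) and H3f3b was not past the threshold.

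Between 6 and 14 hpa, over the first S phase of the embryo, 0 of the 10 genes were past the threshold in either direction by limma, while 6.17% of all genes were higher, 5.02% lower and 11.2% either. At an unadjusted p under 0.05 the limma fit gave 2833 of 12084 genes. Atrx differed by -1.19 (limma adjusted p = 0.063), with 67.2 to 230 TPM at 6 hpa and 43.6 to 61.6 TPM at 14 hpa, without overlap. Chaf1b differed by 1.38 (limma adjusted p = 0.055), with 0.568 TPM in 14 hpa replicate 1 and 5.65 to 11.8 TPM in the other 5. In replicates 1 to 3 and 4 to 6 taken alone, Atrx changed by -1.69 and -0.68 and Chaf1b by 1.13 and 1.62. The sign differed between the sets for Chaf1a (-0.23 and 1.49) and Asf1a (0.39 and -0.12). Deviations of same-numbered libraries of these stages correlated at 0.14 to 0.39, but only 2 of 6 correlated best with their own number. The labels do not state a pairing. With the replicate number as a block shared by all CC and SCNT groups, 2 genes were past the threshold. These were Atrx at -1.19 (limma adjusted p = 0.011) and Chaf1b at 1.38 (limma adjusted p = 0.043). Of the 23 further assembly genes, 3 fell from 6 to 14 hpa and 0 rose, namely Rbbp7 (-1.17), Hat1 (-1.14) and Set (-1.11), and the fork gene Mcm2 fell as well (-1.65).

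From 14 hpa to E2C, 2 of the 10 genes fell and 0 rose, while 3.1% of all genes fell, 2.9% rose and 6.0% did either. Nasp fell by 1.42 on the log2 scale (SE 0.30, limma adjusted p = 0.0012), from 153 to 186 TPM at 14 hpa to 38.0 to 97.7 TPM at E2C. Asf1a fell by 1.20 (SE 0.30, limma adjusted p = 0.0065), from 486 to 1257 TPM to 221 to 452 TPM. Neither gene overlapped between the stages. Both falls came more from replicates 1 to 3, where the changes were -1.88 for Nasp and -2.06 for Asf1a, than from replicates 4 to 6, where they were -0.96 and -0.35 and were not past the threshold. Asf1a was also not past it with quantile normalization (-0.95). The assembly genes Hat1 (-1.50) and Spty2d1 (-1.15) and the fork gene Rfc3 (-1.51) fell over the same interval, and none of these lists had a gene that rose.

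Over the 2-cell stage, when the major wave of embryonic transcription begins, 4 of the 10 genes changed from E2C to L2C, 2 upward and 2 downward, while 23.6% of all genes rose, 11.1% fell and 34.7% did either. Hira rose by 1.73 (SE 0.37, limma adjusted p = 0.00014), and 5 of its 6 L2C libraries were above all E2C libraries. Nasp rose by 1.29 (SE 0.30, limma adjusted p = 0.00050), with overlap of the stages. Asf1b fell by 1.90 (SE 0.36, limma adjusted p = 2.1e-05) without overlap, and Asf1a fell by 1.09 (SE 0.30, limma adjusted p = 0.0030) with overlap. In replicates 1 to 3 and 4 to 6 taken alone, Asf1b changed by -2.38 and -1.42, Asf1a by -1.04 and -1.13, Hira by 1.06 and 2.41 and Nasp by 2.34 and 0.25. The rise of Hira was not past the threshold in replicates 1 to 3 alone nor that of Nasp in replicates 4 to 6 alone, and the fall of Asf1a was lost when TPM were rescaled over annotated genes (-0.75), with quantile normalization (-0.99) and without E2C replicate 5 or L2C replicate 2.

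Among the other lists at L2C, 6 of 14 fork genes rose and 0 fell, with Mcm3 at 2.33 and Rfc4 at 1.84. Of the 23 assembly genes, 4 rose and 3 fell, with Set at 3.42, Rbbp7 at -2.21 and Npm2 at -1.47. The median difference was 0.98 for fork genes, 0.34 for assembly genes, 0.56 for the 10 chaperones and 0.26 for all genes tested. Oip5 rose by 2.71 and H3f3b fell by 1.20.

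From L2C to 4C, 1 of the 10 genes rose and 1 fell, while 11.7% of all genes rose, 26.5% fell and 38.3% did either. Atrx fell by 1.51 (SE 0.46, limma adjusted p = 0.0060), to 19.8, 18.1, 18.9, 8.10 and 13.9 TPM in the 5 4C libraries, all below the lowest L2C library. The maternal marker sum went from 608 to 2679 TPM at L2C to 36.6 to 101 TPM at 4C, and its part in the fall was not tested. Nap1l1 rose by 1.09 (SE 0.24, limma adjusted p = 0.00019), to 153, 156, 247, 518 and 428 TPM at 4C against 76.3 to 221 TPM at L2C. The rise of Nap1l1 was larger in replicates 4 to 6 (1.89), and it was lost without 4C replicate 4 or 5, without L2C replicate 1, in replicates 1 to 3 alone (0.57), with rescaled TPM (0.89) and with quantile normalization (0.73). Atrx stayed past the threshold in each of these fits. Of the 23 assembly genes 5 rose and 5 fell, with Npm2 at -2.59 and Cabin1 at -1.80.

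From 4C to 8C, 1 of the 10 genes fell and 0 rose, while 8.39% of all genes fell, 11.6% rose and 20.0% did either. Ubn1 fell by 1.23 (SE 0.36, limma adjusted p = 0.0096), from 12.1, 17.1, 8.32, 6.24 and 4.90 TPM at 4C to 2.01 to 6.82 TPM at 8C, with overlap. Its fall was not past the threshold in replicates 4 to 6 alone (-0.63), in a fit of these 2 groups alone or without 4C replicate 2. Nap1l1 differed by 0.97 (limma adjusted p = 0.0024), with 1.69 in replicates 1 to 3 and -0.03 in replicates 4 to 6. From 8C to the morula, 0 of the 10 genes were past the threshold by limma, while 9.05% of all genes rose, 3.53% fell and 12.6% did either, and 3245 genes had an unadjusted p under 0.05. Nap1l1 differed by -0.83 (limma adjusted p = 0.0099) without overlap of the stages. In replicates 4 to 6 alone 5 of the 10 genes were past the threshold from 8C to the morula. The share of all genes past it in that fit is not given, so this count has no background beside it. Fork genes rose at both steps, 4 of 14 from 4C to 8C with Mcm6 at 1.91 and 3 of 14 from 8C to the morula with Lig1 at 1.95, and 0 fell at either.

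The contrast of the whole cleavage period, 8C against 6 hpa, was added after the data were seen. Here 4 of the 10 genes rose and 5 fell, while 36.1% of all genes rose, 31.2% fell and 67.3% changed in either direction. Chaf1b rose by 4.06 (SE 0.50, limma adjusted p = 2.3e-10), Nap1l1 by 1.32 (limma adjusted p = 1.3e-06), Hira by 1.17 (limma adjusted p = 0.0045) and Nasp by 1.09 (limma adjusted p = 0.0013). Atrx fell by 3.28 (SE 0.44, limma adjusted p = 3.0e-09), Asf1b by 2.87 (limma adjusted p = 4.5e-10), Asf1a by 2.67 (limma adjusted p = 2.5e-11), Daxx by 2.21 (limma adjusted p = 0.00038) and Ubn1 by 1.72 (limma adjusted p = 1.3e-05). Apart from Hira, none of the 9 genes overlapped between the stages, and each had the same sign in replicates 1 to 3 and in replicates 4 to 6. The share of all genes free of overlap in this contrast is not given, so this statement has no background beside it. Chaf1a, the partner of Chaf1b in CAF-1, differed by -1.08 (limma adjusted p = 0.052) and was not past the threshold. Among the replication-independent class, Hira was the only gene that rose. The rise of Nasp was lost with rescaled TPM (0.91), with quantile normalization (0.38) and in replicates 1 to 3 alone (0.89), that of Nap1l1 with quantile normalization (0.57) and that of Hira in replicates 4 to 6 alone (0.96). The maternal marker sum went from at least 4171 TPM to at most 16.1 TPM over the same interval, and its part in the falls was not tested.

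**Figure D2:**
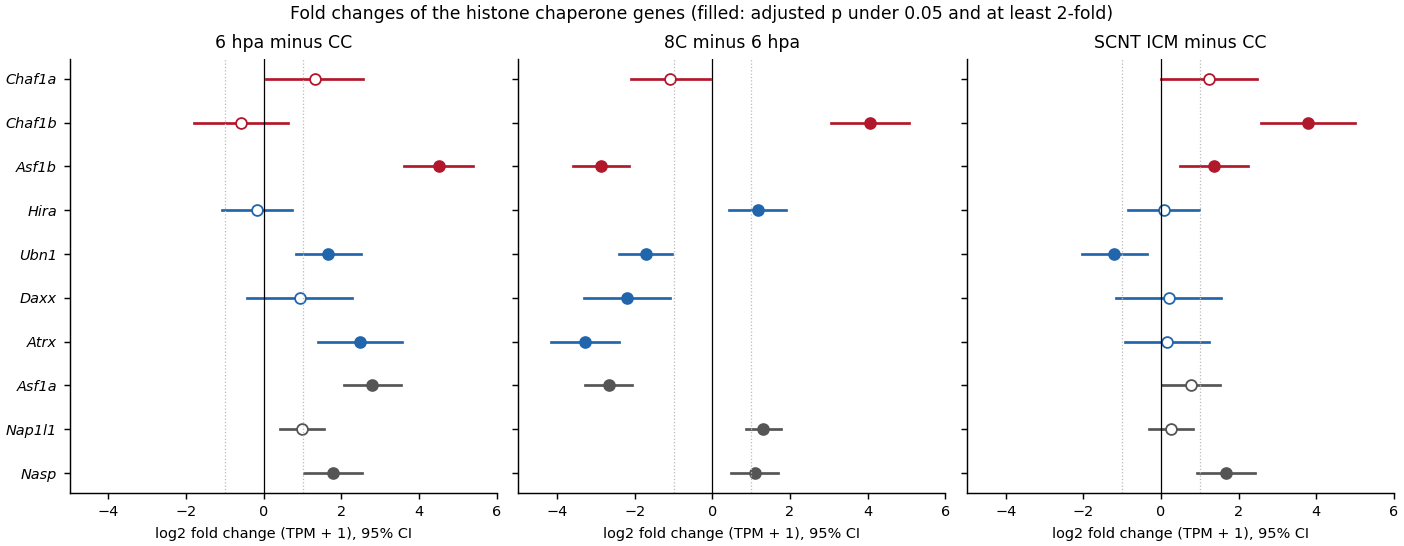
Log2 difference in TPM + 1 of each of the 10 chaperone genes for 6 hpa minus CC, 8C minus 6 hpa and SCNT ICM minus CC, with lines for the 95% confidence interval and filled points for genes with a limma adjusted p under 0.05 and at least a 2-fold change (dotted lines). Asf1b, Atrx, Asf1a and Ubn1 lie to the right at 6 hpa and to the left at 8C, while Chaf1b lies to the right at 8C and in the ICM.

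Over the same contrast, 7 of 14 fork genes rose and 1 fell. Rfc2 (5.30) and Fen1, the flap endonuclease (4.50), rose and Mcm2 fell (-1.84). Of 23 assembly genes, 6 rose and 5 fell, with Set at 5.69 and Npm2 at -5.12. H3f3a rose by 3.27, and the centromeric gene Oip5 rose by 4.82.

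At the blastocyst, the comparison asks whether chaperone RNA differs as the first lineages form. In the SCNT ICM against the morula, 1 of the 10 genes rose and 3 fell, while 8.93% of all genes rose, 15.1% fell and 24.0% did either. Atrx rose by 1.53 (SE 0.44, limma adjusted p = 0.0063), Asf1b fell by 1.23 (SE 0.36, limma adjusted p = 0.0072), Nap1l1 by 1.22 (SE 0.23, limma adjusted p = 4.4e-05) and Ubn1 by 1.01 (SE 0.34, limma adjusted p = 0.021). Only Nap1l1 was free of overlap, at 97.5 to 150 TPM in the ICM against 198 to 438 TPM in the morula. Atrx was 62.7 TPM in ICM replicate 2 and 14.5 to 23.3 TPM in the other 5, and its rise was 0.84 in replicates 1 to 3, not past the threshold, and 2.22 in replicates 4 to 6. In a fit of these 2 groups alone Atrx and Asf1b were not past the threshold, the fall of Asf1b was also lost in replicates 4 to 6 alone and without ICM replicate 2, that of Nap1l1 in replicates 4 to 6 alone (-0.72), and that of Ubn1 with quantile normalization (-0.38), in either set of replicates and without morula replicate 2 or 6 or ICM replicate 2, 3 or 5.

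In the SCNT TE against the morula, 1 of the 10 genes fell and 0 rose, while 10.9% of all genes fell, 11.0% rose and 22.0% did either. Nap1l1 fell by 1.29 (SE 0.23, limma adjusted p = 1.7e-05), to 83.6 to 161 TPM, below every morula library, and it fell in both sets of replicates (-1.50 and -1.09). Atrx differed by 1.07 (limma adjusted p = 0.067). These comparisons share the morula libraries, so Nap1l1 in the ICM and TE is not an independent pair. Between the TE and the ICM, 0 of the 10 genes were past the threshold by limma, while 4.25% of all genes were higher in the TE, 1.54% lower and 5.79% either, and 2249 had an unadjusted p under 0.05. The largest difference was that of Asf1b, 0.68 (95% interval -0.03 to 1.40), which was 1.77 in replicates 1 to 3 and -0.40 in replicates 4 to 6. Atrx differed by -0.46 (95% interval -1.34 to 0.42). Of the 23 assembly genes, 5 fell and 0 rose from the morula to each lineage, with Ipo4 at -2.10 in the ICM and -2.21 in the TE and Npm1 at -1.96 and -2.15.

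Against the donor cell, the SCNT ICM, a comparison added after the data were seen, was higher in 3 of the 10 genes and lower in 1, while 16.9% of all genes were higher, 21.0% lower and 37.9% changed. Chaf1b rose by 3.79 (SE 0.61, limma adjusted p = 8.1e-07), Nasp by 1.68 (SE 0.37, limma adjusted p = 0.00022) and Asf1b by 1.36 (SE 0.44, limma adjusted p = 0.010), and Ubn1 fell by 1.20 (SE 0.42, limma adjusted p = 0.017). Nasp and Ubn1 were free of overlap with CC, and Chaf1b overlapped through ICM replicate 3 alone. Of the fork genes, 12 of 14 were higher in the ICM and 0 lower and a median difference of 3.08, against 0.51 for the 10 chaperones and 0 for all genes. Mcm2 (4.47) and Fen1 (4.17) were the highest of them. The rise of Asf1b was lost with quantile normalization (0.95), in these 2 groups alone, in replicates 1 to 3 alone (0.77) and without CC replicate 3, and the fall of Ubn1 with quantile normalization (-0.47), in these 2 groups alone and without CC replicate 1 or 2. Atrx differed from CC by 0.16 in the ICM (95% interval -0.92 to 1.24).

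The classes were set against each other in each library as the mean log2(TPM + 1) of Chaf1a, Chaf1b and Asf1b minus that of Hira, Ubn1, Daxx and Atrx. This difference was 0.57 ± 0.29 (SD, n = 3) in CC, 1.09 ± 0.23 (n = 6) at 6 hpa, 2.28 ± 0.61 at 14 hpa, 2.82 ± 0.35 at E2C and 1.95 ± 0.26 at L2C. It was 2.27 ± 0.63 (n = 5) at 4C, 2.64 ± 0.30 at 8C, 3.296 ± 0.68 at the morula, 2.90 ± 0.77 in the ICM and 3.11 ± 0.59 in the TE. The highest CC library was at 0.87 and the lowest 6 hpa library at 0.77, so that CC and 6 hpa overlapped, whereas the libraries from E2C on, at 1.42 or above, all lay above CC and 6 hpa. Both classes were higher at 6 hpa than in CC, with summed TPM of 721 against 38.1 for the coupled class and 156 against 29.8 for the independent class. Within its class each gene has the same weight in the difference of mean logs, whereas the summed TPM rest on few genes. Asf1b made up 98.0% of the summed TPM of the coupled class at 6 hpa and 49.3% in the ICM, and Atrx made up 81.6% of that of the independent class at 6 hpa and 41.9% at the morula. No test was made on the difference of the classes, which is a score over chosen genes.

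**Figure D3:**
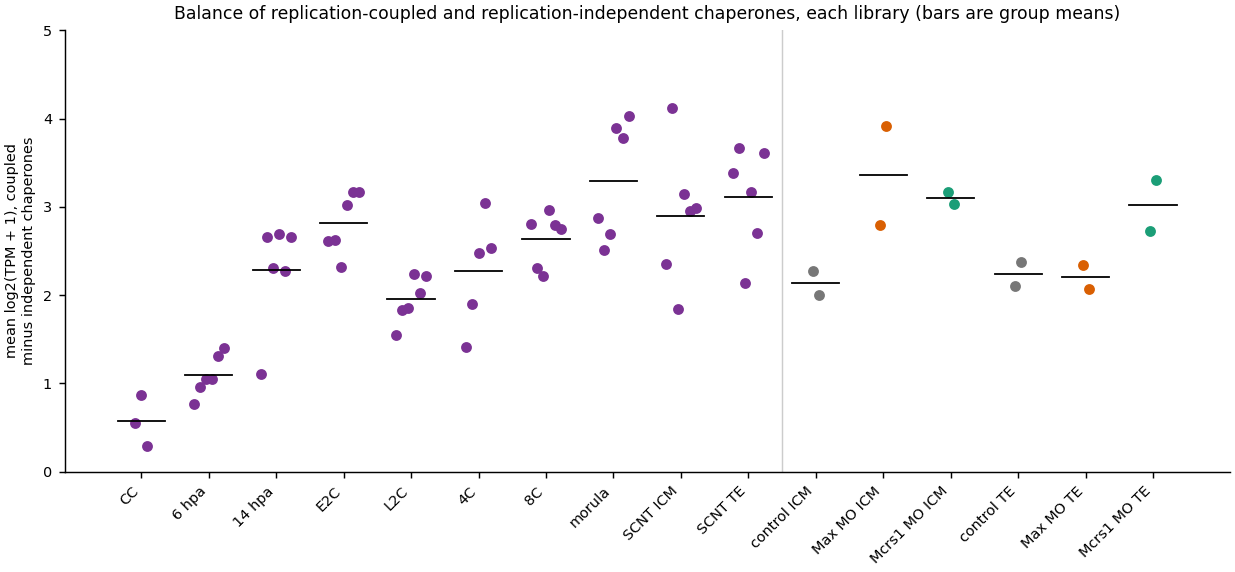
Balance of replication-coupled over replication-independent chaperone RNA, as the mean log2(TPM + 1) of Chaf1a, Chaf1b and Asf1b minus that of Hira, Ubn1, Daxx and Atrx, in each CC, SCNT and morpholino library (points) with group means (bars). CC libraries lie at 0.30 to 0.87 and SCNT libraries from E2C on at 1.42 or above.

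Genes with the course most like a chaperone were taken by Pearson r over the 10 group means of log2(TPM + 1), among 7918 genes with a mean of at least 5 TPM. For Atrx these were Nup98 (0.980), Sh3rf1 (0.971) and Mllt4 (0.969), and for Asf1b they were Pxt1 (0.983), Pigf (0.977) and Cenpu (0.968). Asf1a was most like Uchl3 (0.969), Chaf1b like Crxos (0.968) and Nap1l1 like Npm1 (0.955), another histone chaperone. For Hira, Ubn1, Nasp and Chaf1a the nearest genes were Fgfr1op (0.950), Camsap1 (0.956), Gm3286 (0.919) and 1700001L19Rik (0.914). These values rest on 10 points that share the libraries and the depth, and they are descriptions only.

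The morpholino comparisons ask how the loss of Max or Mcrs1 changes the lineages of fertilized blastocysts. The targets were checked first. Max RNA was 8.42 and 38.0 TPM in the control ICM and 0.443 and 6.82 TPM in the Max MO ICM, and fell by 2.51 (limma adjusted p = 0.040). In the TE it was 28.5 and 34.5 TPM against 8.68 and 16.3 TPM, a difference of -1.32 that was not past the threshold (limma adjusted p = 0.39). Mcrs1 RNA was 253 and 310 TPM in the control ICM against 73.4 and 86.8 TPM in the Mcrs1 MO ICM, a fall of 1.80 (limma adjusted p = 0.0033), and 219 and 294 TPM against 41.1 and 45.5 TPM in the TE, a fall of 2.53 (limma adjusted p = 0.00087). A morpholino that blocks translation need not change the RNA of its target, so RNA alone does not measure the knockdown.

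**Figure D4:**
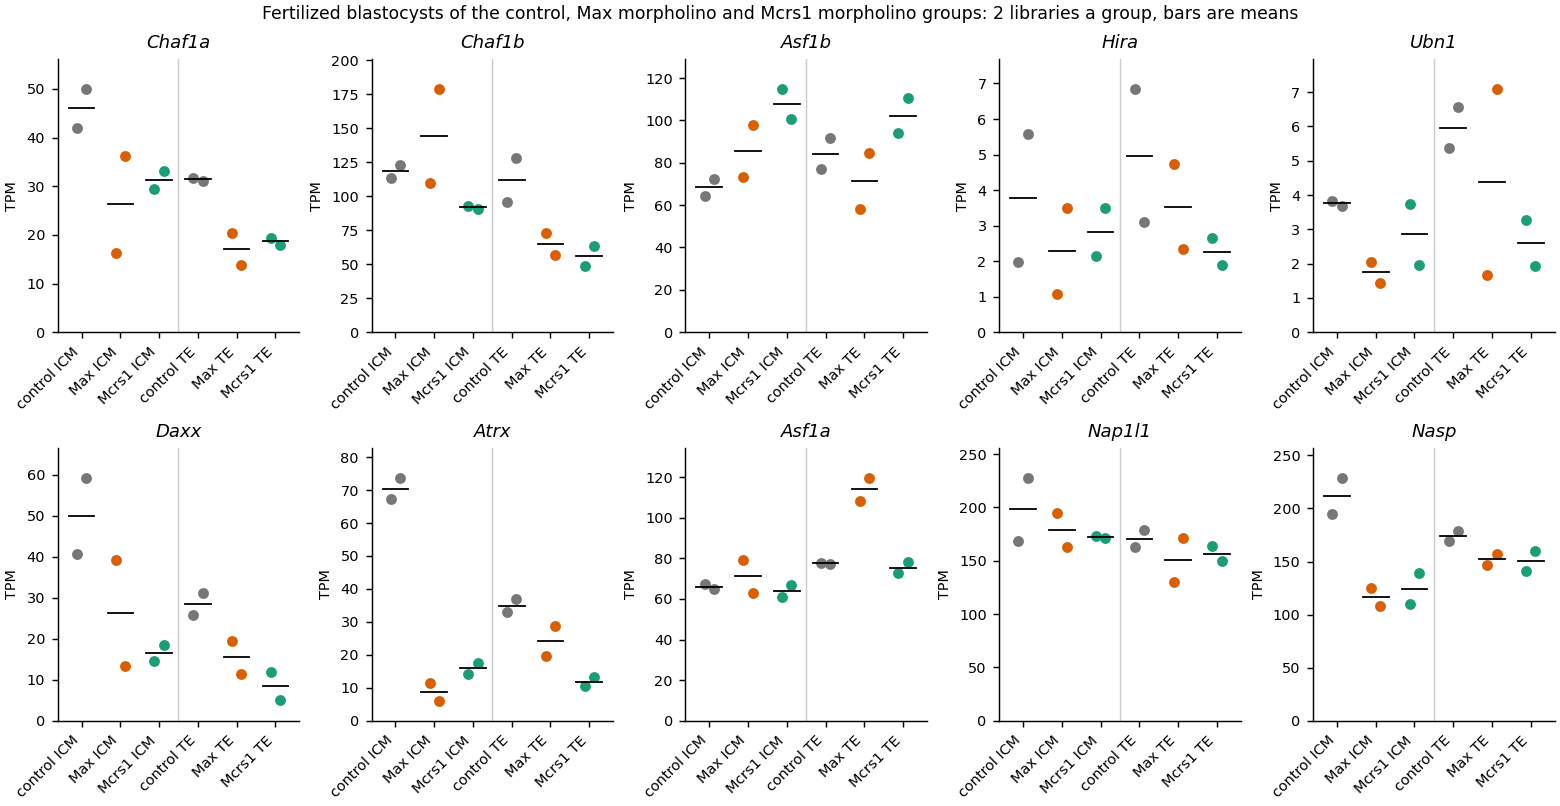
TPM of each of the 10 chaperone genes (linear axis from 0) in every library of the morpholino experiment, with ICM and TE groups of control, Max MO and Mcrs1 MO blastocysts (n = 2 each) and a bar at each group mean. Atrx in the ICM is at 67.2 and 73.7 TPM in controls and at 17.6 TPM or below in both knockdowns.

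With 2 libraries a group, genes not past the threshold were not shown to be unchanged. Atrx was the only chaperone gene past it in the morpholino comparisons of the main fit. In the control ICM it was 67.2 and 73.7 TPM, in the Max MO ICM 11.4 and 6.05 TPM and in the Mcrs1 MO ICM 14.3 and 17.6 TPM. Both control libraries were thus above all 4 knockdown libraries. The sum of the ICM markers was 751 and 879 TPM in the control ICM. It was 558 and 580 TPM in the Max MO ICM and 259 and 564 TPM in the Mcrs1 MO ICM. The markers in this sum did not move together. Nanog was 561 to 639 TPM in the control ICM, 224 to 284 TPM with Max MO and 96.9 to 383 TPM with Mcrs1 MO. Pou5f1 was 153 to 230 TPM in the control ICM, 280 to 318 TPM with Max MO and 161 to 176 TPM with Mcrs1 MO. Fgf4 and Sox2 overlapped the controls with Max MO and lay below them with Mcrs1 MO. The part of these markers in the differences of the ICM was not tested. In the Max MO ICM Atrx was the 1 of 10 genes past the threshold, and 0 rose, while of 11219 genes tested 15.1% fell, 8.65% rose and 23.7% did either. Atrx fell by 2.93 (SE 0.37, limma adjusted p = 0.00099). It fell by 2.99 without control ICM replicate 1 and by 2.86 without control ICM replicate 2, the libraries that differ in TE markers, and it was past the threshold in all 11 other fits.

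In the Mcrs1 MO ICM, Atrx was again the 1 gene past the threshold, while 5.21% of all genes fell, 4.88% rose and 10.1% did either. It fell by 2.08 (SE 0.37, limma adjusted p = 0.0099), by 2.15 without control ICM replicate 1 and by 2.02 without control ICM replicate 2. The call was lost in a fit of the 6 ICM libraries alone (limma adjusted p = 0.093) and without Mcrs1 MO ICM replicate 1 (limma adjusted p = 0.081). The Max MO and Mcrs1 MO comparisons share the control libraries, so the falls are not independent of each other.

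In the TE, Atrx was 32.9 and 37.0 TPM in controls, 19.7 and 28.6 TPM with Max MO and 10.5 and 13.3 TPM with Mcrs1 MO. In the Mcrs1 MO TE it was the 1 gene past the threshold, while 3.31% of all genes fell, 1.77% rose and 5.08% did either, at -1.48 (SE 0.37, limma adjusted p = 0.043). This call was lost without each of the 4 libraries in turn (limma adjusted p = 0.16 to 0.22), with quantile normalization (limma adjusted p = 0.13), with the replicate block (limma adjusted p = 0.054) and with all genes above 0 tested (limma adjusted p = 0.054). In the Max MO TE, 0 of the 10 genes were past the threshold by limma, while 1.45% of all genes fell, 1.04% rose and 2.5% did either, and 2289 had an unadjusted p under 0.05. Atrx differed there by -0.54 (95% interval -1.36 to 0.29). The difference between the lineages in the response of Atrx, TE minus ICM, was 2.39 for Max MO (95% interval 1.23 to 3.56, limma adjusted p = 0.16) and 0.60 for Mcrs1 MO (95% interval -0.57 to 1.77, limma adjusted p = 0.75). Without control ICM replicate 1 the Max MO value was 2.46 and past the threshold (limma adjusted p = 0.038). For these lineage differences limma called 0.0% of all genes, with 1473 and 972 genes at an unadjusted p under 0.05. Control TE against control ICM gave 0 of 10 genes, while 1.2% of all genes were higher in the TE, 1.72% lower and 2.92% either, and 2465 had an unadjusted p under 0.05 by limma, and Atrx differed by -0.99 (limma adjusted p = 0.15).

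Of the other genes, Chaf1a, Nasp and Daxx were below both controls in every knockdown library of the ICM. Taken by knockdown, 33.4% of all genes lay below both ICM controls with Max MO and 26.4% with Mcrs1 MO. The share of all genes that did so in both knockdowns is not given. With Mcrs1 MO, Chaf1a stood at 29.5 and 33.1 TPM in this lineage, a difference of -0.54 (limma adjusted p = 0.38). Nasp was 195 and 229 TPM in the control ICM, 125 and 108 TPM in the Max MO ICM and 110 and 139 TPM in the Mcrs1 MO ICM. Its differences of -0.86 (limma adjusted p = 0.012) and -0.77 (limma adjusted p = 0.036) passed the p-value but were under the fold required. Daxx was 40.6 and 59.2 TPM in the control ICM, 39.2 and 13.3 TPM in the Max MO ICM and 14.6 and 18.4 TPM in the Mcrs1 MO ICM, where it differed by -1.06 with Max MO (limma adjusted p = 0.17) and by -1.52 with Mcrs1 MO (limma adjusted p = 0.089). In the TE Daxx was 25.9 and 31.1 TPM in controls, 19.4 and 11.4 TPM with Max MO and 11.97 and 5.09 TPM with Mcrs1 MO, where it differed by -1.72 (limma adjusted p = 0.081) and was past the threshold in the 6 TE libraries alone (limma adjusted p = 0.049).

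Chaf1a, which has an E-box in its window, was 42.1 and 49.9 TPM in the control ICM and 16.3 and 36.2 TPM in the Max MO ICM, a difference of -0.88 (limma adjusted p = 0.11). Ubn1, with 2 E-boxes, was 3.83 and 3.68 TPM against 2.06 and 1.44 TPM, a difference of -0.80 (limma adjusted p = 0.36). Neither difference was past the threshold, although neither gene overlapped the controls. Of all genes, 33.4% were likewise lower in both Max MO ICM libraries than in both controls. So were Daxx, Atrx and Nasp, which have no E-box in their windows. In the Max MO TE Ubn1 was 1.68 and 7.08 TPM against 5.37 and 6.57 TPM in controls, with overlap. Chaf1a was 20.3 and 13.8 TPM there against 31.6 and 31.2 TPM, without overlap. Chaf1b was 113 and 123 TPM in the control ICM and 110 and 179 TPM in the Max MO ICM, with overlap. In the Mcrs1 MO TE Chaf1b was 48.5 and 63.7 TPM against 96.0 and 128 TPM in controls, a difference of -0.98 (limma adjusted p = 0.064).

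Counted by the order of single libraries, 5 of the 10 genes were lower in both Max MO ICM libraries than in both controls (Chaf1a, Ubn1, Daxx, Atrx and Nasp) and 1 was higher (Asf1b), against 33.4% and 23.5% of all genes. In the Mcrs1 MO ICM 5 were lower (Chaf1a, Chaf1b, Daxx, Atrx and Nasp) and Asf1b was higher, against 26.4% and 23.3%. In the Max MO TE 5 were lower (Chaf1a, Chaf1b, Daxx, Atrx and Nasp) and Asf1a was higher, against 36.3% and 21.2% of all genes, and in the Mcrs1 MO TE 7 were lower (Hira and Ubn1 besides) and Asf1b was higher, against 40.3% and 22.0%. Asf1a was 77.8 and 77.3 TPM in the control TE and 108 and 120 TPM in the Max MO TE, a difference of 0.55 (limma adjusted p = 0.18). The median difference over the 10 genes was -0.66 in the Max MO ICM, -0.46 in the Max MO TE, -0.35 in the Mcrs1 MO ICM and -0.76 in the Mcrs1 MO TE, and over all genes -0.21, -0.19, -0.05 and -0.24. Asf1b was 64.3 and 72.4 TPM in the control ICM, 73.4 and 97.9 TPM with Max MO and 115 and 101 TPM with Mcrs1 MO, with differences of 0.31 and 0.65 (limma adjusted p = 0.40 and 0.12).

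The balance of the classes was 2.27 and 2.01 in the control ICM, 2.80 and 3.92 in the Max MO ICM and 3.16 and 3.03 in the Mcrs1 MO ICM. In the TE it was 2.10 and 2.38 in controls, 2.34 and 2.07 with Max MO and 2.72 and 3.31 with Mcrs1 MO. It was thus higher than in both controls in all libraries of the Max MO ICM, Mcrs1 MO ICM and Mcrs1 MO TE, and overlapped the controls in the Max MO TE. In the Max MO ICM the summed TPM of the coupled class was 199 and 313 against 220 and 245 in controls, with overlap, and that of the independent class was 53.8 and 24.3 against 114 and 142, without.

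Among 22 further assembly genes tested in the Max MO ICM, 0 rose and 3 fell, namely Tonsl, a reader of new histones at forks (-1.68), Ipo4 (-1.14) and Supt16 of the FACT complex (-1.13). The centromeric chaperone Hjurp fell (-1.80) and Mis18a rose (1.25). Of the fork genes Rfc3 (1.30) and Rfc4 (1.12) rose and Mcm2 fell (-1.10), and H3f3a rose (1.04). In the Mcrs1 MO ICM, 2 of the 22 assembly genes rose, Dek (1.22) and Hat1, a histone acetyltransferase (1.10), and 2 fell, Mms22l (-1.81) and Ipo4 (-1.25). H3f3b (1.22), Mis18a (1.34) and Rfc4 (1.07) also rose there. In the Mcrs1 MO TE Cabin1, a subunit of the HIRA complex, fell (-2.21) and Hat1 rose (1.28), and in the Max MO TE 0 of the 22 were past the threshold.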

How the data were processed

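RNA was measured by Smart-seq2 in 68 libraries, 56 of CC and SCNT embryos and 12 of the morpholino experiment. The authors deposited a gene table for each library with coverage, FPKM and TPM. Their processing notes name cutadapt 1.16, HISAT2, StringTie, Cufflinks and deepTools. The deposited TPM signal was summed over the entries of a gene symbol. Entries without a gene name sum to 1000000 in each table and annotated genes stand beside them on the same scale, and coverage and FPKM served only as a guide to depth. No read counts were held in the tables, so limma 3.58.1 in R 4.3.3 was used in place of the count-based test of the study. Groups came from the sample labels. All 56 or all 12 libraries entered a fit of log2(TPM + 1) with a trend over genes of mean TPM of at least 1, and p-values were adjusted by Benjamini-Hochberg over 12084 or 11219 genes. The threshold was an adjusted p below 0.05 together with a 2-fold change. Fold changes of low genes are understated on this scale. The fit was tested on simulated data. 8C against 6 hpa and SCNT ICM against CC were added after the data were seen.

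The 10 chaperones, and the lists of 23 further assembly, 14 fork, 5 centromeric and 2 H3.3 genes, were chosen with earlier results of these data known. The chaperones were always named, and of each list the 2 to 4 genes with the largest change past the threshold could be named. The main fit had no pairing. Same-numbered libraries were marked as possibly paired where their deviations from group means correlated over 0.1 in every pair, with 3 or more pairs. This held for 14 hpa against 6 hpa (0.14 to 0.39) and SCNT TE against SCNT ICM (0.13 to 0.30). The mark comes from the data, as the labels give only a number. As replicates 1 to 3 and 4 to 6 stand apart, it cannot tell pairs from sets. Alternatives were a pseudocount of 0.1, no filter, TPM rescaled over annotated genes, quantile normalization, the largest entry of a gene, the replicate block, the compared groups or the lineage alone, replicates 1 to 3 or 4 to 6 alone and each library left out. Tables were handled in Python 3.11.15 with pandas 2.3.3, numpy 2.4.6, scipy 1.17.1 and matplotlib 3.10.9. Promoter windows were read from RefSeq on GRCm38.p6. Some results of the likeness and centromeric lists are not reported here.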

Additional observations from a re-analysis of the deposited data

Results flagged for a closer look

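Among 90 groups of a gene and a stage with 4 to 10 libraries, 6 held a library that stood farther from the others than Dixon's test allows, where chance gives about 1 in 20. In SCNT ICM replicate 3, Chaf1a was 0.0747 TPM (the other 5 libraries 10.9 to 33.1 TPM) and Chaf1b was 3.13 TPM (55.5 to 140 TPM). In SCNT 14 hpa replicate 1, Chaf1b was 0.568 TPM (5.65 to 11.8 TPM) and Asf1b was 192 TPM (365 to 531 TPM). Atrx was 90.1 TPM in SCNT L2C replicate 2 (34.2 to 44.5 TPM) and 62.7 TPM in SCNT ICM replicate 2 (14.5 to 23.3 TPM).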

How the results depend on the processing

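Of 1248 values of single chaperone genes under the alternative settings, 1137 kept their direction and side of the threshold, 54 fell below it, 51 passed it and 6 changed sign, and the cause was not tested unless fewer samples or genes entered the fit. The counts of the 10 genes that follow stand without the share of all genes past the threshold in the same fit. They therefore cannot be read as particular to the chaperones. The count of the 10 genes past the threshold became 8 with quantile normalization for 6 hpa against CC (from 5). From 6 to 14 hpa it was 1 in place of 0 with rescaled TPM, quantile normalization, the 2 groups alone and replicates 1 to 3, and 2 in replicates 4 to 6. For E2C against 14 hpa it was 1 in place of 2 with quantile normalization and 0 in replicates 4 to 6. Taking replicates 1 to 3 and 4 to 6 alone gave 1 and 4 for 4C against L2C, 3 and 0 for 8C against 4C, 2 and 3 for TE against morula and 1 and 1 for TE against ICM, and replicates 4 to 6 gave 5 for morula against 8C. The 2 groups alone gave 0 for 8C against 4C, 2 for ICM against morula and 2 for ICM against CC. The 6 libraries of the lineage alone gave 0 for the Mcrs1 MO ICM and 2 for the Mcrs1 MO TE, where testing all genes above 0 gave 0 and quantile normalization gave 0. Leaving out each library in turn gave 5 to 6 genes for 6 hpa against CC, 0 to 1 for 14 hpa against 6 hpa, 2 for E2C against 14 hpa, 3 to 5 for L2C against E2C, 1 to 4 for 4C against L2C, 0 to 2 for 8C against 4C, 0 to 1 for morula against 8C, 2 to 4 for ICM against morula, 1 to 2 for TE against morula, 0 for TE against ICM, 9 to 10 for 8C against 6 hpa, 3 to 5 for ICM against CC, 1 to 2 for the Max MO ICM, 0 for the Max MO TE, 0 to 1 for the Mcrs1 MO ICM, 0 for the Mcrs1 MO TE, 0 for control TE against ICM, 0 to 1 for the Max MO lineage difference and 0 for that of Mcrs1 MO. A group left with 1 library was assumed to vary like the others. In the fit with the replicate block, the count was 2 for 14 hpa against 6 hpa (in place of 0), 2 for TE against morula (in place of 1), 0 for the Mcrs1 MO TE (in place of 1), 6 for 6 hpa against CC and 10 for 8C against 6 hpa, and it was as before elsewhere. The rule of 3 or more pairs marked 14 hpa against 6 hpa and SCNT TE against SCNT ICM as possibly paired. In each of these only 2 of 6 libraries correlated best with their own number, and the main fit had no pairing.

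The difference in balance between groups moved when summed TPM replaced the mean of logs, from 0.52 to 1.99 for 6 hpa against CC, 1.19 to 0.42 for 14 hpa against 6 hpa, -0.86 to -1.81 for L2C against E2C, -0.40 to -1.36 for ICM against morula, -0.19 to -1.17 for TE against morula, 0.96 to 1.73 for the Mcrs1 MO ICM, 0.77 to 1.21 for the Mcrs1 MO TE and 0.10 to 0.74 for control TE against ICM. It changed sign with quantile normalization for 4C against L2C (0.32 to -0.15), with a pseudocount of 0.1 for TE against ICM (0.21 to -0.053) and in the Max MO TE, where -0.04 became 0.026 with that pseudocount, 0.085 with summed TPM and -0.38 with quantile normalization. Signs of single genes turned for Chaf1b in the Max MO ICM (0.24, and 0.59 and -0.11 without its replicates 1 and 2), Asf1b (-0.26, and 0.0092 and -0.52 without replicates 1 and 2) and Ubn1 (-0.58, and 0.22 and -1.38 without them) in the Max MO TE, Nap1l1 for 8C against 4C (0.97 to -0.026) and Asf1b for TE against ICM (0.68 to -0.40) in replicates 4 to 6, and Atrx for TE against ICM (-0.46 to 0.39) in replicates 1 to 3. Calls over all genes moved by over 1.5 times for E2C against 14 hpa (725 to 1158 with quantile normalization), TE against ICM (700 to 13 in the 2 groups alone), ICM against morula (2901 to 1694 likewise) and, with 1 library left out, the Mcrs1 MO ICM (1131 to between 87 and 2481), the Mcrs1 MO TE (570 to between 6 and 205) and control TE against ICM (328 to between 1 and 2276). Quantile normalization shifted the share of higher calls from 68% to 48.2% for L2C against E2C and from 36.5% to 52.6% in the Max MO ICM. It also shifted that share from 30.7% to 51.7% for 4C against L2C. The shift was from 71.9% to 48.2% for morula against 8C and from 73.4% to 52.7% for TE against ICM. Rescaled TPM took the share from 58.0% to 32.7% for 8C against 4C, so that most calls there were falls. Depth is unknown, so values near 0 carry an error that could not be given.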
